A study of Mus musculus with 17 samples.

Results

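The MS4A family (membrane-spanning 4-domains, subfamily A) was followed through the macrophages of the mouse mammary gland, in 7 paralogs: Ms4a7, Ms4a4a, Ms4a4b, Ms4a4c, Ms4a6b, Ms4a6c and Ms4a6d. All 7 were found by their symbols among the 19782 genes listed for the knockout experiments, the 17130 genes listed for the CXCR4 sort, the 18909 genes listed for cultured cells and the 27040 entries listed for basal cells. The family was chosen by earlier values of these same libraries, above all by the difference of Ms4a7 between macrophages sorted with and without surface CXCR4. The values of that sort are therefore given as a description, with no test.

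MS4A genes encode small proteins that cross the membrane several times and sit in the plasma membrane beside other receptors. The best known relatives are Ms4a1, which encodes the B cell antigen CD20, and Ms4a2, which encodes the beta chain of the high-affinity IgE receptor of mast cells. Macrophages and microglia use the Ms4a4, Ms4a6 and Ms4a7 genes: MS4A4A is a surface protein of tissue macrophages that associates with the beta-glucan receptor dectin-1 (Clec7a), and the human MS4A locus is linked to the amount of soluble TREM2. Ms4a7 is widely used as a marker of macrophages of blood origin in the brain, and Ms4a4b is best known from T cells and NK cells.

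The study asked how the chemokine CXCL12, made in part by luminal epithelial cells, acts through its receptor CXCR4 on macrophages that lie near mammary stem cells. RNA was sequenced from 17 libraries in 12 groups, all from the glands of virgin mice, of which 15 libraries were macrophages sorted on F4/80 and CD11b. The knockout experiments hold 8 libraries, 2 in each of 4 groups: LysmCre+ controls, LysmCre+ Cxcr4fl/fl knockouts, K8Cre+ controls and K8Cre+ Cxcl12fl/fl knockouts. LysM-Cre acts in myeloid cells in general, and K8-Cre in luminal epithelial cells, so that the macrophages of the Cxcl12 knockout keep their own genes; the controls of each line carry the same Cre. Wild type macrophages were further sorted by surface CXCR4 into 2 positive libraries and 1 negative library. Wild type macrophages kept in culture gave 4 libraries, 1 each without treatment, with recombinant CXCL12, with the AKT inhibitor GSK690693 and with both. The last 2 libraries were P4 cells, basal cells (Lin-CD24+CD29hi) enriched for stem cells, 1 from a K8Cre+ control and 1 from a K8Cre+ Cxcl12fl/fl knockout. Ages, doses and treatment times are not given in the sources used here, and neither is whether separate mice gave the 2 libraries of each group, so that a p-value measures only the spread between these samples.

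Levels are given in CPM, a gene's reads divided by its library's total in units of M reads. The knockout libraries held 8.60 to 37.2 M reads, those of the sort by CXCR4 23.2 to 28.8 M and those of culture 14.3 to 29.0 M, by the smallest difference between listed values. In K8-Cre control 1, the shallowest library, 37.2% of the listed genes stood at 0, and 8.34% in the library with the fewest. The share of reads on small noncoding genes was 2.96% to 6.75% in every library called repeat 1, against 15.2% to 19.3% in every one called repeat 2, and knockout changes are therefore also given within each repeat. Cxcr4 stood at 232 and 140 CPM in its knockout against 819 and 318 CPM in the controls, a log2 change of -1.49 (SE 0.49) that did not pass over all genes (limma, adjusted p = 1). Cxcl12, which is deleted in luminal cells and not in macrophages, is no check on the Cxcl12 knockout libraries. The sorted cells carried the macrophage marker Adgre1 (F4/80), at 1041 and 1429 CPM with surface CXCR4 and at 558 CPM without.

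The 7 genes lie side by side on mouse chromosome 19, within 284 kb from 11321039 to 11604849 (GRCm38, GENCODE M21). Ms4a7 (ENSMUSG00000024672, chr19:11321039-11336146, minus strand) stands at one end of this stretch and Ms4a6d (ENSMUSG00000024679, chr19:11586604-11604849, minus strand) at the other. Between them, all on the plus strand, lie Ms4a4a (ENSMUSG00000101389, chr19:11375523-11392790), Ms4a4c (ENSMUSG00000024675, chr19:11404770-11427246), Ms4a4b (ENSMUSG00000056290, chr19:11443553-11467055), Ms4a6c (ENSMUSG00000079419, chr19:11469366-11482192) and Ms4a6b (ENSMUSG00000024677, chr19:11516512-11531256). Ms4a4d, a relative that is not among the 7, lies between Ms4a6b and Ms4a6d, and Ms4a14 lies next to Ms4a7.

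The paralogs differ in how well short reads can tell them apart. The coding sequences of Ms4a4b and Ms4a4c were identical at 91.8% of 681 aligned bases, those of Ms4a6b and Ms4a6c at 85.7% of 645, those of Ms4a6b and Ms4a6d at 81.3% of 733 and those of Ms4a6c and Ms4a6d at 77.5% of 650. Ms4a7 and Ms4a4a stood further off: their coding sequence shared no run of 50 bases with any of the other paralogs compared. Such runs made up 12.3% of the 50-base windows of Ms4a4b, 13.6% of Ms4a4c, 6.71% of Ms4a6b, 5.76% of Ms4a6d and 0.992% of Ms4a6c. The longest run, of 127 bases and the same in Ms4a4b and Ms4a4c, starts at base 321 of both coding sequences and is shown because a read that falls within it fits both genes. Capitals are not used in it, since no base differs.
Ms4a4b and Ms4a4c, shared run: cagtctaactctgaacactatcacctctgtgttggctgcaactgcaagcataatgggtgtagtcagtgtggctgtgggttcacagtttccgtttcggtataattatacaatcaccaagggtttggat
The levels of Ms4a4b and Ms4a4c, and to a lesser degree those of the Ms4a6 genes, therefore depend on how such reads were shared out, which is not given in the sources used here. Of the values of the 7 genes, 36 of 56 in the knockout table, 17 of 21 in the CXCR4 sort and 5 of 28 in culture were not a whole number of reads (tolerance 0.05 reads).

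RefSeq promoters (GRCm38.p6) were found for 6 of the 7 genes, all but Ms4a6d. The 250 bases before each start were searched on both strands for GAGGAAGT, a site of the type bound by the myeloid factor PU.1, and for GAAANNGAA, the core of the element through which interferon acts on its target genes. The first was found in none of the 6, and stood in 2.44% of 32851 promoters of that length. The second was found in Ms4a7, Ms4a6c and Ms4a6b and in none of the 3 Ms4a4 genes, and stood in 7.13% of the promoters. A match is a description of letters and not a site of binding. The stretches with a match are shown with the match in capitals, those of Ms4a6c and Ms4a6b ended where the annotation places an exon of the gene, because these 3 genes are set side by side in the sort and in culture.
Ms4a7, first start, chr19:11336147-11336396, minus strand: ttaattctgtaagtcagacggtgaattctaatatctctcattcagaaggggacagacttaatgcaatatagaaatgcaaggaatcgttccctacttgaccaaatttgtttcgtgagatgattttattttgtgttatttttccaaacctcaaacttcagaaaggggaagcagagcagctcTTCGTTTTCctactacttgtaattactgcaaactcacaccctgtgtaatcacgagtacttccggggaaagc
Ms4a7, second start, chr19:11334696-11334945, minus strand: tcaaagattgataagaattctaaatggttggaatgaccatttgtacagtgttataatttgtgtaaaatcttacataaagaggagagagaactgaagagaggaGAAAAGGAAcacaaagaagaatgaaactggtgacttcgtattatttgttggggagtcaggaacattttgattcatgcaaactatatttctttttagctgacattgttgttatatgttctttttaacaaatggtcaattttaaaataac
Ms4a6c, chr19:11469118-11469365, plus strand: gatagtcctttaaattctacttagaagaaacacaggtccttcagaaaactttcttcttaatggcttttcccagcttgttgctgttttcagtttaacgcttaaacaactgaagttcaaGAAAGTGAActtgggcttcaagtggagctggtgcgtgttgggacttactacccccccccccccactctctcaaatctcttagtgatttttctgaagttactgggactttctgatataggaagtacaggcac
Ms4a6b, chr19:11518309-11518452, plus strand: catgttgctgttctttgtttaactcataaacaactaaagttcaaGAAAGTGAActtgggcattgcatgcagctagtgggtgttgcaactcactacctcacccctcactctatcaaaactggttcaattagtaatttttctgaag
Ms4a7 has 2 starts in the table, each with a match, which ended 62 bases before the first and 139 bases before the second. It ended 124 bases before the start of Ms4a6c and 197 bases before that of Ms4a6b. In these last 2 genes it lay inside a run of 24 bases that both genes hold, and the whole promoters of these 2 genes were identical at 85.1% of 175 aligned bases. Those of Ms4a4b and Ms4a4c were identical at 74.2% of 240. Distances here are from the RefSeq starts, which can differ from those of GENCODE. The stretches shown for Ms4a6b and for the second start of Ms4a7 lie inside the GENCODE gene spans given above.

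Per kilobase of exon, Ms4a4c was the highest of the 7 in the sorted macrophages of the knockout experiments and Ms4a4b the lowest. Over the 8 libraries, the median level of Ms4a4c was 89.2 CPM per kb (range 64.0 to 131). It was followed by Ms4a6c at 81.0 (43.4 to 125), Ms4a4a at 65.9 (24.5 to 79.3) and Ms4a6d at 53.8 (12.2 to 77.0), in the same unit. Ms4a7 had 47.9 CPM per kb (20.7 to 74.9), Ms4a6b 42.9 (23.0 to 75.2) and Ms4a4b 3.72 (0.024 to 10.6). The steps in this order were small against the spread between libraries, except the last: Ms4a6b lay above Ms4a4b in 8 of 8 libraries. Ms4a4c lay above Ms4a6c in 7 of 8 and Ms4a6c above Ms4a4a in 6 of 8. Each of Ms4a4a, Ms4a6d and Ms4a7 lay above its next lower neighbour in 5 of 8. The order depends on the annotated exon length, which was 0.836 kb for Ms4a4a and 4.75 kb for Ms4a4b. In CPM, not divided by length, the median of Ms4a4a was 55.1, below Ms4a6b at 115, Ms4a7 at 83.0 and Ms4a6d at 82.6. Ms4a4c was still the highest, at 156 CPM, and Ms4a4b the lowest, at 17.7 CPM. In their own libraries, the 6 higher genes stood at a median of the 81.9th to 94.4th percentile of all listed genes, and Ms4a4b at the 64.9th.

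The genes also differed in how steady they were. Ms4a4c ranged 2.04-fold over the 8 libraries, Ms4a6c 2.88-fold, Ms4a4a 3.23-fold, Ms4a6b 3.27-fold, Ms4a7 3.61-fold and Ms4a6d 6.32-fold. Ms4a4b had 1 read (0.116 CPM) in K8-Cre control 1 and between 9.57 and 50.4 CPM in the other 7. Of the 4782 genes at a level like that of Ms4a4b in K8-Cre control 2, 49.2% also had at most 2 reads in K8-Cre control 1. As a description over the 8 libraries, with no test, the levels of Ms4a4b and Ms4a6b went together most closely among the paralogs (Pearson r = 0.88), followed by Ms4a6b with Ms4a6d (r = 0.71) and Ms4a7 with Ms4a4a (r = 0.70). The 8 libraries share depth and repeat number as well as genotype. Among 13338 genes of at least 10 CPM, the patterns most like that of Ms4a7 were those of Poglut3 (r = 0.94), Gm10036 (r = 0.93) and Ube2c (r = 0.92), and most like that of Ms4a4a those of Dnm1 (r = 0.94) and Exoc6b (r = 0.91).
The nearest pattern to Ms4a4b was that of Appl1 (r = 0.98), to Ms4a4c that of Nudt14 (r = 0.94), to Ms4a6b that of Ctsh (r = 0.97), to Ms4a6c that of M1ap (r = 0.97) and to Ms4a6d that of Igtp (r = 0.99). These genes are the top of 13338 correlations over only 8 libraries, where a high r can be reached without any link between genes. The names are a description only.

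**Figure D1:**
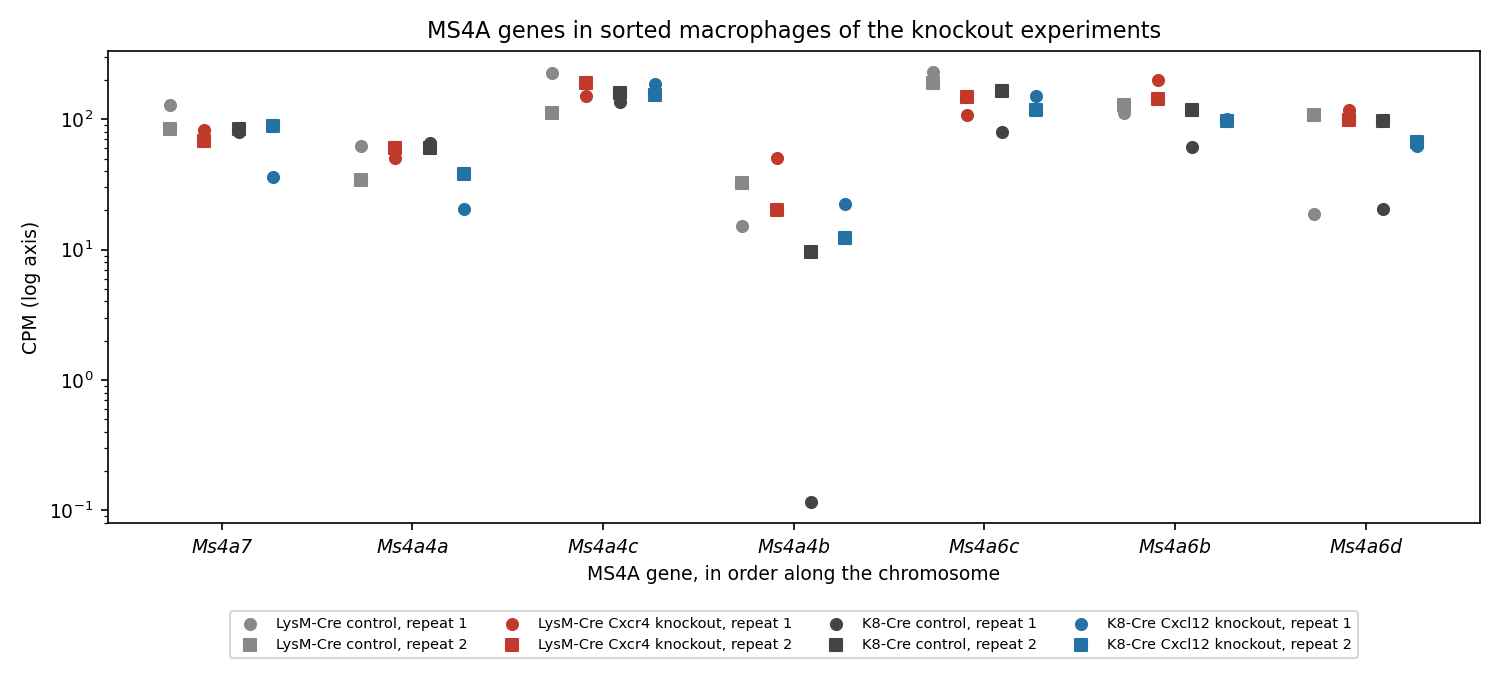
CPM (log axis) of the 7 MS4A genes, in order along the chromosome, in each of the 8 macrophage libraries of the knockout experiments; circles are repeat 1 and squares repeat 2 of each group. Ms4a4b in K8-Cre control 1 lies apart at 0.116 CPM, and Ms4a6d is lowest in the 2 controls numbered 1, at 18.7 and 20.3 CPM.

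Loss of Cxcr4 in myeloid cells moved none of the 7 genes past the test. Of 17275 genes tested with limma, 1 passed at an adjusted p under 0.05 (0.00579% of the genes), Lyz2, named after its value was seen, and 575 had an unadjusted p under 0.05; none of the 7 was among either. Lyz2 stood at 67.4 and 51.7 CPM in the knockout against 10226 and 2780 CPM in the controls, a log2 change of -6.47 (SE 0.40). LysM-Cre is inserted into Lyz2 itself. Both groups carry it, in a number of copies not given in the sources used here. Whether the groups are matched in copies is thus not known. The part of the Cre insertion in the value of Lyz2, and in the other values of this contrast, was not tested. The lowest unadjusted p among the 7 was 0.119, and all 7 had an adjusted p of 1. The median log2 change of the 7 was 0.26, against 0.14 over all genes tested, and 5 of 7 were above 0.

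Ms4a7 had 82.5 and 67.6 CPM in the Cxcr4 knockout and 130 and 84.3 CPM in the controls. Both knockout libraries lay below both controls, with a log2 change of -0.48 (SE 0.71, 95% interval -1.88 to 0.92), and of -0.65 in repeat 1 and -0.32 in repeat 2. Without LysM-Cre control 1 it was -0.17. Ms4a6c was likewise lower in both, at 107 and 147 CPM against 230 and 191 CPM, a log2 change of -0.73 (SE 0.59, 95% interval -1.91 to 0.45). Ms4a6b lay higher in both, at 202 and 143 CPM against 112 and 128 CPM, a log2 change of 0.50 (SE 0.63, 95% interval -0.74 to 1.75), which was 0.26 without Cxcr4 knockout 1. The groups did not overlap in these 3 of the 7 genes, and in 25.4% of all genes tested.

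Ms4a6d had the widest fitted change, 1.24 on the log2 scale (SE 0.79, 95% interval -0.33 to 2.81). Its knockout libraries had 118 and 99.6 CPM and its controls 18.7 and 108 CPM, so that control 1 alone stood low, and without it the change was 0.01. Within repeat 1 the log2 change was 2.60, and within repeat 2 it was -0.11. Ms4a4a had 50.2 and 60.7 CPM against 61.9 and 34.3 CPM, Ms4a4b 50.4 and 20.3 CPM against 15.1 and 32.4 CPM, and Ms4a4c 150 and 191 CPM against 229 and 112 CPM. In these 3 genes the repeats had opposite signs, with log2 changes of 0.26 (SE 0.84), 0.51 (SE 1.41) and 0.08 (SE 0.58). Over the 7 genes the repeats shared a sign in 3, and over all genes tested in 44.4%.

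Loss of Cxcl12 in luminal cells likewise moved none of the 7 genes in macrophages past the test. No gene passed (limma, 0% of 17275), and 491 had an unadjusted p under 0.05, none of them among the 7. The lowest unadjusted p of the 7 was 0.0969, for Ms4a4b, and all 7 had an adjusted p of 1. The median log2 change of the 7 was 0.21, against 0.36 over all genes, with 5 of 7 above 0.

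Ms4a4a, the surface protein of tissue macrophages, had 20.5 and 38.0 CPM in the Cxcl12 knockout and 66.3 and 59.9 CPM in the controls. Both knockout libraries lay below both controls, with a log2 change of -1.14 (SE 0.84, 95% interval -2.81 to 0.52), of -1.65 in repeat 1 and -0.64 in repeat 2. Ms4a4b had 22.4 and 12.3 CPM against 0.116 and 9.57 CPM, a log2 change of 2.36 (SE 1.41, 95% interval -0.43 to 5.16). Within repeat 1, which holds the control with 1 read, it was 4.39, within repeat 2 it was 0.33, and without that control the fitted change was 0.74. The groups did not overlap in these 2 genes, and in 28.4% of all genes. Within the K8-Cre libraries the T and NK cell gene Cd3e moved with Ms4a4b, at 40.2 and 24.0 CPM in the knockout against 0.581 and 11.2 CPM in the controls. In the LysM-Cre libraries Cd3e did not follow Ms4a4b, at 9.86 and 1.89 CPM in the Cxcr4 knockout against 11.9 and 6.06 CPM. The 14 T and NK cell markers summed to 407 and 286 CPM in the Cxcl12 knockout and 608 and 259 CPM in its controls, and 9 of 14 were above a log2 change of 0. Cd3d and Cd3g stood at 0 in K8-Cre control 1, the shallowest library, where 37.2% of the listed genes did. Cd3d also stood at 0 in K8-Cre control 2. The part of T and NK cells in the level of Ms4a4b was not tested.

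The other genes varied around no change. Ms4a7 had 35.9 and 89.1 CPM in the Cxcl12 knockout against 79.9 and 83.5 CPM, a log2 change of -0.52 (SE 0.71) that rested on repeat 1 (-1.13, against 0.09 in repeat 2). Ms4a6d had 61.9 and 67.3 CPM against 20.3 and 97.9 CPM, a log2 change of 0.51 (SE 0.79), with 1.56 in repeat 1 and -0.53 in repeat 2. Ms4a4c had 188 and 153 CPM against 135 and 159 CPM, and Ms4a6c 151 and 118 CPM against 79.9 and 165 CPM. Ms4a6b had 99.9 and 97.4 CPM against 61.6 and 118 CPM. Each of these last 3 had a log2 change of 0.21 (SE 0.58 to 0.63), below the median of all genes. The repeats shared a sign in 2 of the 7 genes, and in 46.4% of all genes. Several of the small changes turned in sign under other scalings or without the control libraries numbered 1, as given in the closing section.

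**Figure D2:**
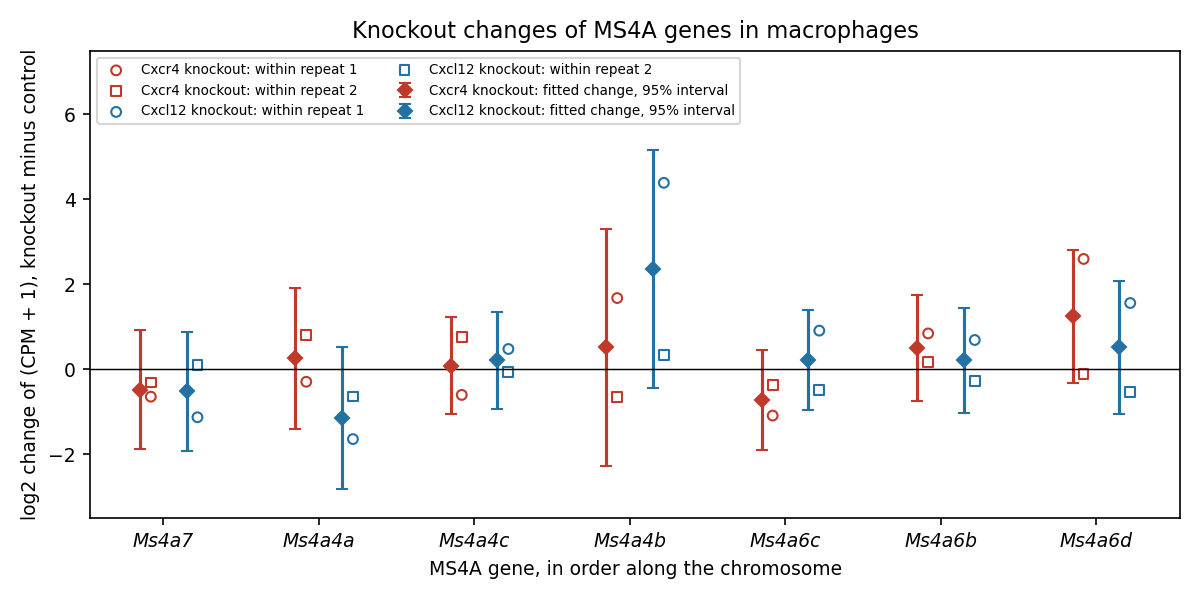
Log2 change of (CPM + 1), knockout minus control, of the 7 MS4A genes with its 95% interval (diamonds and bars) and within repeat 1 (open circles) and repeat 2 (open squares). The interval of each gene spans 0 in both knockouts, and the repeats lie farthest apart for Ms4a4b in the Cxcl12 knockout, at 4.39 and 0.33.

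The changes in the 2 knockouts were also compared with each other. Of 17275 genes, 1 passed for the difference between them (0.00579%; limma, Lyz2 again), and 428 had an unadjusted p under 0.05; the lowest among the 7 MS4A genes was 0.242, for Ms4a4a. Its change was -1.14 in the Cxcl12 knockout and 0.26 in the Cxcr4 knockout, a difference of 1.40 on the log2 scale (SE 1.19, 95% interval -0.96 to 3.76, adjusted p = 1). For Ms4a7 the changes were close to each other, at -0.52 and -0.48, a difference of 0.04 (SE 1.00, 95% interval -1.95 to 2.02). This interval is wide, and does not show that both knockouts act alike on the gene.

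Relatives and partners of the family did not pass in the knockouts either. Of 16 listed MS4A relatives outside the 7, 7 were measured and none passed in either knockout. Those with the lowest unadjusted p in the Cxcr4 knockout were Ms4a1 (log2 change -1.40), the related channel gene Tmem176a (-0.64) and Ms4a8a (2.06), and in the Cxcl12 knockout Ms4a14 (2.56), Ms4a8a (-3.05) and Ms4a4d (-2.00). Of 19 listed partners and signalling genes, 18 were measured and none passed. The lowest unadjusted p in the Cxcr4 knockout belonged to Irf8, which encodes a transcription factor of monocytes (log2 change -1.12), Nlrp3, an inflammasome sensor (0.65), and Syk, a kinase downstream of dectin-1 (0.45). In the Cxcl12 knockout they were Spi1, which encodes PU.1 (2.58, with 4.71 in repeat 1 and 0.44 in repeat 2), the Fc receptor gene Fcgr3 (-1.13) and Tyrobp, the adaptor of TREM2 (-0.88).

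The CXCR4 sort spread the paralogs apart. Cells with surface CXCR4 had 320 and 298 CPM of Ms4a7 and cells without it 2.97 CPM, so that the gene was 108-fold and 100-fold higher. By its mean log2 difference on the CPM + 1 scale, 6.29, it ranked 5 from the top among 10236 genes of at least 10 CPM in the highest library. Both positive libraries lay at least 2-fold above the negative one in 3 of the 7 genes (10.4% of all genes), at least 2-fold below it in 1 (12.4% of all genes), and neither in 3. The median log2 difference of the 7 was 0.61, and that of all genes -0.18. These are the values by which the family was chosen, and nothing is read from them about the family as a whole.

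Ms4a6d had 165 and 197 CPM with surface CXCR4 against 27.8 CPM without, and was thus 5.93-fold and 7.10-fold higher. Ms4a4a had 53.2 and 106 CPM against 17.5 CPM, 3.04-fold and 6.03-fold higher. Ms4a4c went the other way, with 70.1 and 99.8 CPM against 218 CPM, 3.11-fold and 2.18-fold higher in the negative library. Ms4a4b, too, was lower in both positive libraries, at 14.1 and 6.85 CPM against 27.7 CPM, but in 1 of them by less than 2-fold. Ms4a6b had 113 and 153 CPM against 85.9 CPM, and Ms4a6c 129 and 182 CPM against 203 CPM. On the log2 scale the close pair Ms4a4b and Ms4a4c thus differed by -1.40 and -1.37 between the sorts, whereas Ms4a6b and Ms4a6c differed by 0.61 and -0.40 and Ms4a6d by 2.65.

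**Figure D3:**
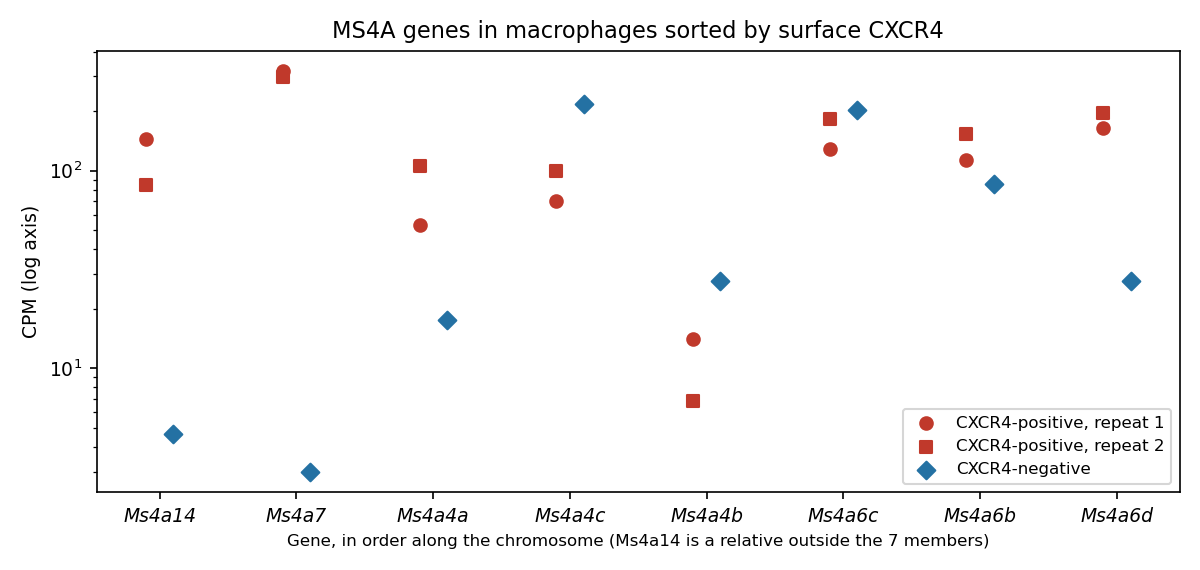
CPM (log axis) of Ms4a14 and the 7 MS4A genes, in order along the chromosome, in the 2 CXCR4-positive libraries (circles and squares) and the CXCR4-negative library (diamonds). Ms4a7 and Ms4a14 are farthest apart between the 2 sorts, and Ms4a4c and Ms4a4b are higher in the negative one.

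Along the chromosome, the large differences did not fall on one side only. Ms4a14, whose start lies 21.7 kb from that of Ms4a7, had 144 and 84.4 CPM against 4.66 CPM, a log2 difference of 4.30. Ms4a4a, 39.4 kb to the other side, had 2.04. From 68.6 to 201 kb lay Ms4a4c (-1.37), Ms4a4b (-1.40), Ms4a6c (-0.40), Ms4a6b (0.61) and Ms4a4d (-1.60), and at 269 kb Ms4a6d (2.65). Ms4a4d did not reach 10 CPM in any of these libraries, at 0.451 and 2.02 CPM against 5.35 CPM. Ms4a1, 69.9 kb from Ms4a7 beyond Ms4a14, had -0.80. Ms4a8a, 255 kb away on that side, had -0.50, with -1.79 and 0.79 in the 2 positive libraries.

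**Figure D4:**
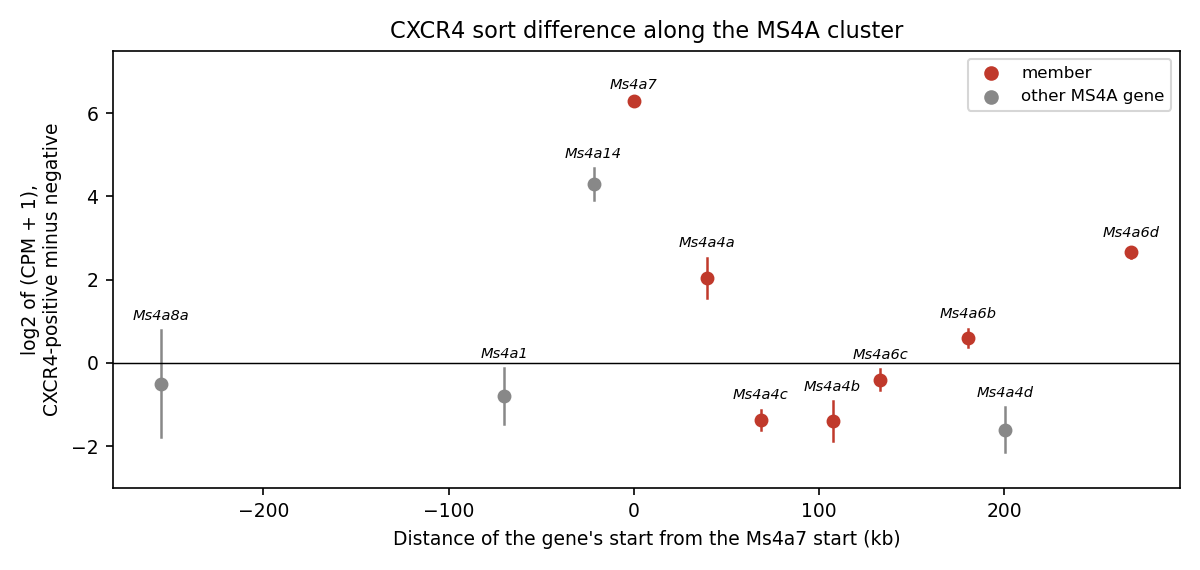
Log2 difference of (CPM + 1), CXCR4-positive minus negative, of MS4A genes against the distance in kb of each gene's start from that of Ms4a7; dots are means and bars join the values of the 2 positive libraries, each against the 1 negative library. Values are high at Ms4a7, Ms4a14 and Ms4a4a, negative at Ms4a4c, Ms4a4b and Ms4a4d (the last below 10 CPM in each library), and high again at Ms4a6d.

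Markers of macrophage types and of other cells differed between the sorts. Their lists were chosen with earlier results of these data known, so that the counts are a description only. All 14 markers of resident stromal macrophages were at least 2-fold higher in both positive libraries (10.4% of all genes were). Their summed level was 15108 and 14254 CPM against 571 CPM, and Lyve1 had 129 and 161 CPM against 1.81 CPM. Of 11 monocyte markers measured, 8 were at least 2-fold lower, with a sum of 976 and 967 CPM against 2165 CPM over the list. Eosinophil markers summed to 5.66 and 3.93 CPM with surface CXCR4 against 151 CPM without, with all 3 measured genes lower. Dendritic cell markers summed to 321 and 233 CPM against 856 CPM, but did not all go one way. Of the 6 measured, 4 were at least 2-fold lower, among them Flt3 at 18.1 and 0.441 CPM against 187 CPM. The other 2 were at least 2-fold higher, among them Xcr1 at 24.2 and 28.2 CPM against 5.43 CPM. Mast cell and basophil markers summed to 59.5 and 52.9 CPM against 29.8 CPM, with 3 of 4 higher. The negative library, in which Ms4a4c and Ms4a4b stood higher, thus also had the higher sums of the monocyte, eosinophil and dendritic cell lists. Its sums of the resident stromal and mast cell lists were the lower ones. Cxcr4 RNA itself stood at 632 and 875 CPM with surface CXCR4 and at 772 CPM without. The part of the mixture of cell types in the values of the MS4A genes was not tested; in bulk libraries, fewer cells of a type and less RNA per cell cannot be told apart. Of the partners, 18 were measured, 9 at least 2-fold higher and 2 lower. Those farthest apart were Trem2, a lipid receptor of macrophages (log2 difference 3.32), Kit, the stem cell factor receptor that an MS4A protein accompanies in mast cells (-2.97), and the Fc receptor gene Fcgr1 (2.95).

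In culture, the paralogs differed in their levels with CXCL12 and the AKT inhibitor; Ms4a6c was low in both libraries with the inhibitor, and Ms4a4a and Ms4a4b were listed at 0 in some libraries. Each treatment had 1 library, so that there is no replicate check, and the 95% intervals (Clopper-Pearson) cover counting error only. Counts of changes were made over the 6 members, and the 11671 genes in all, of at least 10 CPM in the highest library, on the CPM + 1 scale. With CXCL12 alone, none of the 6 was at least 2-fold higher (13.4% of all genes) and 1 was lower (14.6%). With CXCL12 on top of the inhibitor, 2 were higher (19.3%) and 0 lower (29.5%). With the inhibitor alone, 0 were higher (19.1%) and 2 lower (17.5%), and with the inhibitor on top of CXCL12, 1 was higher (20.3%) and 2 lower (28.3%). Ms4a4b, listed at 0 with the inhibitor alone, is 1 of the 2 higher and 1 of the 2 lower in those counts with the inhibitor library. For CXCL12, none of the 6 was at least 2-fold higher in both settings (3.74% of all genes) or lower in both (5.83%). For the inhibitor, none was higher in both (5.15%), and 1, Ms4a6c, was lower in both (7.22%).

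Ms4a6c had 24.5 CPM in untreated cells and 22.8 CPM with CXCL12, against 2.28 CPM with the inhibitor and 0.830 CPM with both. The inhibitor libraries were the 2 low ones. The level was 10.7-fold lower with the inhibitor alone (95% interval 7.48 to 15.6) and 27.4-fold lower with it in the presence of CXCL12 (16.3 to 53.0). Its close paralog Ms4a6b stood at 19.8, 36.4, 25.0 and 38.0 CPM in the same order, and 1.26-fold (1.09 to 1.46) and 1.04-fold (0.942 to 1.15) higher with the inhibitor. Among 12 interferon-stimulated genes, 10 were at least 2-fold lower with the inhibitor alone and 10 with the inhibitor in the presence of CXCL12, and 8 in both settings. Rsad2, an antiviral enzyme, had 1657, 2160, 358 and 480 CPM in untreated, CXCL12, inhibitor and combined libraries. The part of interferon signalling in the level of Ms4a6c was not tested.

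Ms4a7 had 28.6 CPM untreated, 11.2 CPM with CXCL12, 48.2 CPM with the inhibitor and 36.4 CPM with both. It was lowest with CXCL12 alone, 2.56-fold lower than untreated (95% interval 2.23 to 2.94), and 1.33-fold lower with CXCL12 on top of the inhibitor (1.19 to 1.48). With the inhibitor it was 1.69-fold higher without CXCL12 (1.51 to 1.88) and 3.26-fold higher with it (2.84 to 3.74). Ms4a6d had 23.4, 45.1, 16.1 and 78.5 CPM in the same order, and was highest in both libraries with CXCL12. With CXCL12 it was 1.93-fold higher without the inhibitor (1.74 to 2.14) and 4.87-fold higher with it (4.23 to 5.63).

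Ms4a4c had 37.9 CPM untreated, 60.9 CPM with CXCL12, 30.02 CPM with the inhibitor and 19.4 CPM with both. It was 1.61-fold higher with CXCL12 alone (95% interval 1.48 to 1.75), and 3.14-fold lower with both than with CXCL12 alone (2.78 to 3.56). Ms4a4b had 8.27, 15.6 and 10.5 CPM in untreated, CXCL12 and combined libraries and was listed at 0 with the inhibitor alone. Ms4a4a had 7.51 CPM with CXCL12 and 8.73 CPM with both, and was listed at 0 in the 2 libraries without CXCL12. A value of 0 was common at such levels: of genes at a level like that of Ms4a4a in the CXCL12 library, 15.7% were listed at 0 in untreated cells, and of those at its level in the combined library, 15.0% were listed at 0 with the inhibitor. For Ms4a4b, the shares at 0 in the inhibitor library were 17.9% of the genes at its untreated level and 5.40% of those at its level with CXCL12. The 2 genes therefore get no fold.

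**Figure D5:**
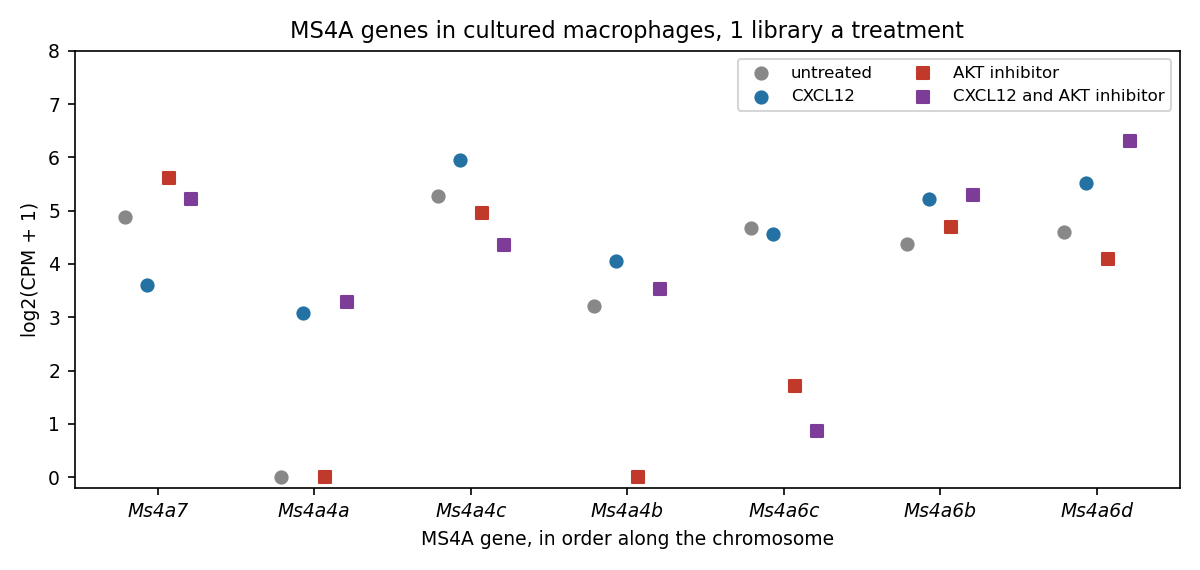
Log2(CPM + 1) of the 7 MS4A genes in the 4 cultured libraries, 1 a treatment; circles are libraries without and squares libraries with the AKT inhibitor. Ms4a6c is low in both libraries with the inhibitor, and Ms4a4a stands at 0 in the 2 libraries without CXCL12.

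Of 14 partners measured in culture, at most 4 were 2-fold apart in any of the 4 ratios. Among relatives, those with the largest difference were Ms4a1 (log2 ratio -4.13, inhibitor without CXCL12), Ms4a8a (3.69, inhibitor with CXCL12) and Ms4a14, the neighbour of Ms4a7 (-1.40, inhibitor with CXCL12). Ms4a14 had 16.1, 14.2, 12.8 and 4.74 CPM in untreated, CXCL12, inhibitor and combined libraries, and so did not share the low value of Ms4a7 with CXCL12 alone. Among partners, Fcgr3 had a log2 ratio of -3.94 (CXCL12 with inhibitor) and Tyrobp one of 2.36 (inhibitor without CXCL12).

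Cultured cells held less RNA of most of these genes than freshly sorted control macrophages, although the tables were normalized separately, their gene positions follow different annotations, and the levels, matched by symbol, are only set side by side. In 5 of the 7 genes, all 4 cultured libraries lay below all 4 control libraries of the knockout experiments, as they did in 8.2% of the genes compared. Values of the 7 genes were not whole numbers of reads in 36 of 56 cases in the knockout table and 5 of 28 in culture. Reads shared by paralogs may thus have been counted differently, and the part of this in the levels was not tested. Ms4a7 and Ms4a4a, whose coding sequence shared no run of 50 bases with the other paralogs compared, are among the 5 genes. Ms4a7 had 11.2 to 48.2 CPM in culture and 79.9 to 130 CPM in fresh controls, and stood at the 57.2nd to 79.2nd percentile of its libraries in culture, against the 85.7th to 92.0th. Ms4a4c had 19.4 to 60.9 CPM against 112 to 229 CPM, Ms4a6c 0.830 to 24.5 CPM against 79.9 to 230 CPM, Ms4a6b 19.8 to 38.0 CPM against 61.6 to 128 CPM, and Ms4a4a 0 to 8.73 CPM against 34.3 to 66.3 CPM. Ms4a4b and Ms4a6d overlapped between the 2 settings, with 16.1 to 78.5 CPM of Ms4a6d in culture against 18.7 to 108 CPM. Lower levels in culture were not particular to the family. Adgre1 had 149 to 240 CPM against 408 to 702 CPM, and Csf1r 173 to 351 CPM against 480 to 1039 CPM. The sum of 12 macrophage identity markers was 6379 to 10104 CPM in culture. It was higher in LysM-Cre control 1 (15025 CPM) and in K8-Cre controls 1 and 2 (11256 and 11099 CPM). Only LysM-Cre control 2, at 5566 CPM, made the 2 settings overlap. The sum includes Lyz2, which alone had 10226 and 2780 CPM in the LysM-Cre controls and 7922 and 7433 CPM in the K8-Cre controls.

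Basal P4 cells had little RNA of the family. All 7 genes stood between 0 and 0.421 FPKM, a level per kilobase of transcript and M reads, in the 2 libraries, against 561 and 471 FPKM of the basal keratin gene Krt14. Ms4a7 had 0.330 FPKM in the control and 0.421 FPKM in the Cxcl12 knockout. At these levels no gene could be 2-fold apart on the FPKM + 1 scale, so that the count of 0 of the 7 (11.4% of all entries were) shows nothing about the knockout. Ms4a4a, at 0.186 FPKM in the control, was listed at 0 in the knockout. The macrophage gene Csf1r stood at 0.555 and 1.08 FPKM in the same libraries. Ms4a4d was the highest MS4A gene in P4 cells, at 4.28 and 7.31 FPKM.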

How the data were processed

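RNA-seq of 17 libraries was used. The authors deposited log2 values for macrophages, read here from the values as log2(CPM + 0.0001), and FPKM for P4 cells. Per the submitters' processing notes STAR 2.7.8a, Partek and the build hg38 were used, although the files hold mouse symbols and positions; how reads were counted is not given in the sources used here. Gene starts matched GENCODE M21 on GRCm38 for 99.5% of genes in the knockout and CXCR4 tables and 2.16% in the culture table, which was matched by symbol. One step between low values was taken as 1 read (74.2% to 89.9% of low values came out whole). The design foresaw CPM values, and the tests written for them were used.

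Knockouts were tested with limma 3.58.1 (R 4.3.3) on log2(CPM + 1), which shrinks changes of low genes, over 8 libraries and 4 group means with a mean-variance trend, for genes that reached 1 CPM in 2 or more libraries; p was two-sided and adjusted by Benjamini-Hochberg, threshold 0.05. With 97.3 prior and 4 residual degrees of freedom, the spread came mostly from genes of like level. The fit was tested on simulated data. The sort, culture and P4 libraries were described without a test. Per-kb levels used exons of protein-coding transcripts. Named were all members, 3 relatives and 3 partners per comparison (lowest p or largest difference, at least 10 CPM) and the 3 genes of most similar pattern; 1 gene that this rule names is not reported here. The members and all gene lists were chosen with earlier results of these data known. Alternatives were pseudocount, filter, scaling, trend, replicate block and leaving out each library.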

Additional observations from a re-analysis of the deposited data

Results flagged for a closer look

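In 2 members, the single cultured libraries moved in opposite directions in the 2 settings. Ms4a4c was 1.61-fold its untreated level with CXCL12 alone, and 0.646-fold the level with the inhibitor when CXCL12 was added to it. Ms4a6d was 0.690-fold its untreated level with the AKT inhibitor alone, and 1.74-fold its level with CXCL12 when the inhibitor was added. Neither difference was tested, since each treatment had 1 library.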

How the results depend on the processing

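Over 350 alternative values for the 21 knockout results of the 7 genes, 0 passed the threshold, and the lowest adjusted p (limma, Benjamini-Hochberg) was 0.203. The counts over all genes moved more. In the Cxcr4 knockout, 8 genes passed with no filter, 0 without the mean-variance trend, 2 with the 4 libraries of the Cre line alone and 1 to 150 with 1 library left out (150 without LysM-Cre control 2, 19 without Cxcr4 knockout 2, 17 without LysM-Cre control 1, 4 and 3 without Cxcl12 knockout 1 and 2). In the Cxcl12 knockout, 1 passed with the replicate block, 1 with the 4 libraries of the Cre line alone and 0 to 151 with 1 library left out (151 without K8-Cre control 2, 7 without Cxcl12 knockout 2). For the difference, 2 passed with no filter, 0 without the trend and 1 to 30 with 1 library left out (30 without LysM-Cre control 2, 2 to 5 without 5 others). The replicate numbers are not stated to mark a shared batch, and deviations of same-numbered libraries correlated at 0.0573 to 0.139; the replicate block changed no other count.

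Scaling shifted all genes: the median log2 change over all genes was 0.14 and 0.36 in the Cxcr4 and Cxcl12 knockouts as deposited, 0.065 and 0.21 with median-ratio scaling and 0.0077 and 0.019 with quantile normalization. Small changes turned in sign. Without both controls numbered 1, an alternative chosen after the data were seen, the log2 change was -0.016 for Ms4a4b in the Cxcr4 knockout, -0.26 for Ms4a6b, -0.31 for Ms4a6c and -0.59 for Ms4a6d in the Cxcl12 knockout, and 0.50 for the difference of Ms4a4c. With median-ratio scaling, Ms4a4c stood at -0.027 in the Cxcr4 knockout and -0.0012 in the Cxcl12 knockout, and Ms4a6b at -0.0032 in the latter. Quantile normalization put the difference of Ms4a7 at -0.0027. With 1 library left out, the Cxcr4 knockout change ranged from -0.16 to 0.67 for Ms4a4a, -0.12 to 1.15 for Ms4a4b, -0.79 to -0.17 for Ms4a7, 0.26 to 0.75 for Ms4a6b and -0.43 to 0.59 for Ms4a4c. The Cxcl12 knockout change ranged from -0.26 to 0.67 for Ms4a6b, -0.31 to 0.73 for Ms4a6c, -0.59 to 1.62 for Ms4a6d and -1.16 to 0.12 for Ms4a7. The difference ranged from -0.64 to 0.38 for Ms4a4c, -0.17 to 0.76 for Ms4a6b, -0.50 to 1.96 for Ms4a6d and -0.61 to 0.68 for Ms4a7. The cause was not tested. The sort had 28 alternative values and the culture 56. A change of sign was counted only where the main value was at least 2-fold, and 0 were counted in either. Turns of sign in smaller values were not counted. In the sort 2 alternative values moved, both of the difference of Ms4a7 (6.65 with a pseudocount of 0.1 CPM and 6.41 with median-ratio scaling). In culture 10 moved, mostly ratios of Ms4a4a and Ms4a4b to a value of 0 (Ms4a4b, CXCL12 with inhibitor, 6.73 with a pseudocount of 0.1 CPM against 3.53). With a pseudocount of 0.1 FPKM, 1 member was 2-fold apart in P4 cells.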
